A study of Mus musculus with 14 samples.

Results

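Motile cilia are the beating projections that move mucus along the airways, and multiciliated cells carry many of them. The genes described here build the motile cilium or switch on its making, and they were chosen by name as a list of 36 genes. Of these, 33 were measured, among 21212 probe sets in all. Probe sets for 30 of them were found by their array symbol and for Dnah3, Dnah12 and Lrrc23 through the Entrez number. Dnah7a, Drc1 and Tubb4b were not analysed here.

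The samples were whole lungs of C57BL/6J mice at postnatal day 6, measured with 100 ng of total RNA per sample on Affymetrix mouse Gene ST arrays. The study compared 4 lungs of genotype Atxn1L -/- (gene symbol Atxn1l) with 4 wild types, and 3 lungs of genotype Atxn1 -/- with 3 wild types of their own. All mice came from intercrosses of heterozygotes, so the wild types are offspring of such crosses too, and no mouse carried a further allele or had a treatment by the labels. Levels are log2 RMA values, and the 8 arrays of the Atxn1l set and the 6 arrays of the Atxn1 set were normalized apart, so each knockout is set against its own wild types. In whole lung, fewer ciliated cells and less RNA per ciliated cell cannot be told apart.

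Motile cilia share a plan. Dynein arms on the outer microtubule doublets pull neighbouring doublets past each other, radial spokes pass signals between the doublets and the central pair, and a protein ruler sets where arms and spokes attach. Multicilin (Mcidas) and cyclin O (Ccno) start the programme and multiply the centrioles that become the bases of the cilia, and Foxj1 with the RFX factors then switches on the structural genes. RFX factors bind a palindromic promoter element called the X-box.

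As a check of the labels, Atxn1l was at 6.68 to 7.05 on the knockout arrays of its set and at 9.29 to 9.59 on the wild types. The Atxn1 probe set read 10.99 to 11.04 on Atxn1 knockout arrays and 10.92 to 11.14 on their wild types, so it did not check that genotype. Xist, the long noncoding RNA of female X inactivation, was low (6.32 to 7.04) on Atxn1l knockout replicate 1 and on wild-type replicates 1 and 2 of that set. It was low (6.83 to 6.94) on Atxn1 knockout replicate 1 and on wild-type replicates 1 and 2 of that set. The median log2 level was 8.44 to 8.53 on arrays of the Atxn1l set and 9.21 to 9.24 on arrays of the Atxn1 set. A dim level was set at the 95th percentile of 1070 olfactory receptor probe sets, 7.24 in the Atxn1l set and 8.06 in the Atxn1 set. In each set 31 of the 33 cilium genes lay above it, with Dnaic1 and Spag16 below it in the Atxn1l set and Spag6 and Spag16 below it in the Atxn1 set.

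The promoters of the list held the letters of the RFX element more often than promoters at large. Promoter windows, which run over 250 bases before and 50 bases after a RefSeq transcript start on GRCm38.p6, were matched for 28 of the 33 genes, as 31 windows. An X-box, searched on both strands as a pair of arms with a spacer of 0 to 3 bases, was found in 8 of 31 windows (25.8%), those of 7 genes, against 1.53% of all 32851 windows. It was in 15.5% of the windows of 62 other motile cilium genes and in 6.45% of those of 30 genes of intraflagellar transport. The arm GTTGCC alone, which overlaps many of those X-boxes, was in 16 windows (51.6%) against 12.5% of all. The forkhead letters GTAAACA, in either direction, were in 1 window (3.23%), that of Sntn, against 3.65% of all. A match is a match of letters and was not shown to be bound here.

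The X-box matches are printed, ending at the latest at the transcript start on which the window is set, because 7 genes of unlike roles share them; capitals mark the X-box. They lie 6 bases (Dnaic1) to 205 bases (Ccno) before that start, and every match but that of Dnaic1 overlaps a GTTGCC arm. That start is not always the outermost one of the gene. In the RefSeq gene table of the same build the X-boxes of 2 genes (Ccno and Tekt2) lie before the gene, those of 2 (Hydin and Spag16) lie across its outermost start and those of 3 (Dnaic1, Dnaic2 and Lrrc23) lie inside it. Up to 30 bases on either side are shown for Ccno and Tekt2 and up to 8 for the others. On the plus strand these are chr13:112987553-112987626 (Ccno), chr4:41569767-41569793 (Dnaic1), chr11:114727378-114727406 (Dnaic2), chr8:110266948-110266976 (Hydin) and chr1:69826859-69826888 (Spag16). On the minus strand they are chr6:124779871-124779899 (Lrrc23) and chr4:126325689-126325747 (Tekt2), all on GRCm38.p6 and read 5′ to 3′ on the strand of the gene.
Ccno: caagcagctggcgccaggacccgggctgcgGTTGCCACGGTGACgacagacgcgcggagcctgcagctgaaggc
Dnaic1: gcctgtcgGTTGCTGGGTAACcgcgtc
Dnaic2: cggccaggGTTGCTAGGCAACtggtaaac
Hydin: actctgcgGTTGCTGTGGCAACagatggt
Lrrc23: ttggcctcGTAACCTGGCAACtactgagc
Spag16: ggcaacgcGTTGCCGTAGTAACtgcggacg
Tekt2: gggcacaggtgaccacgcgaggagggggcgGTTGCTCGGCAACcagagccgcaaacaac

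None of the 33 cilium genes passed the test in lungs without Atxn1l, and most of their log2 changes were small and above 0. Changes are given as knockout minus wild type with the standard error of the limma fit, and a gene is called at a Benjamini-Hochberg adjusted p under 0.05 over all probe sets. By that rule 9 of 21212 probe sets (0.0424%) were called, and 0 of the 33 cilium genes. Log2 changes ran between -0.11 and 0.24 with a median of 0.072, against 0.0026 over all probe sets. They lay above 0 for 28 of the 33 genes, against 51.3% of all probe sets. Every 95% interval of the 33 lay between -0.31 and 0.45, so the farthest limit of any interval was a 1.36-fold change. Each interval holds for 1 gene taken alone, so together they are not a 95% bound on all 33. At an unadjusted p under 0.05, 1 of 33 was higher in the knockouts, against 4.54% of all probe sets, and 0 were lower, against 3.95%. One gene had all knockout arrays above all wild types, against 2.76% of all probe sets, and 0 had all below, against 2.56%. All of these counts are near the share of all probe sets, apart from the count of changes above 0.

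**Figure D1:**
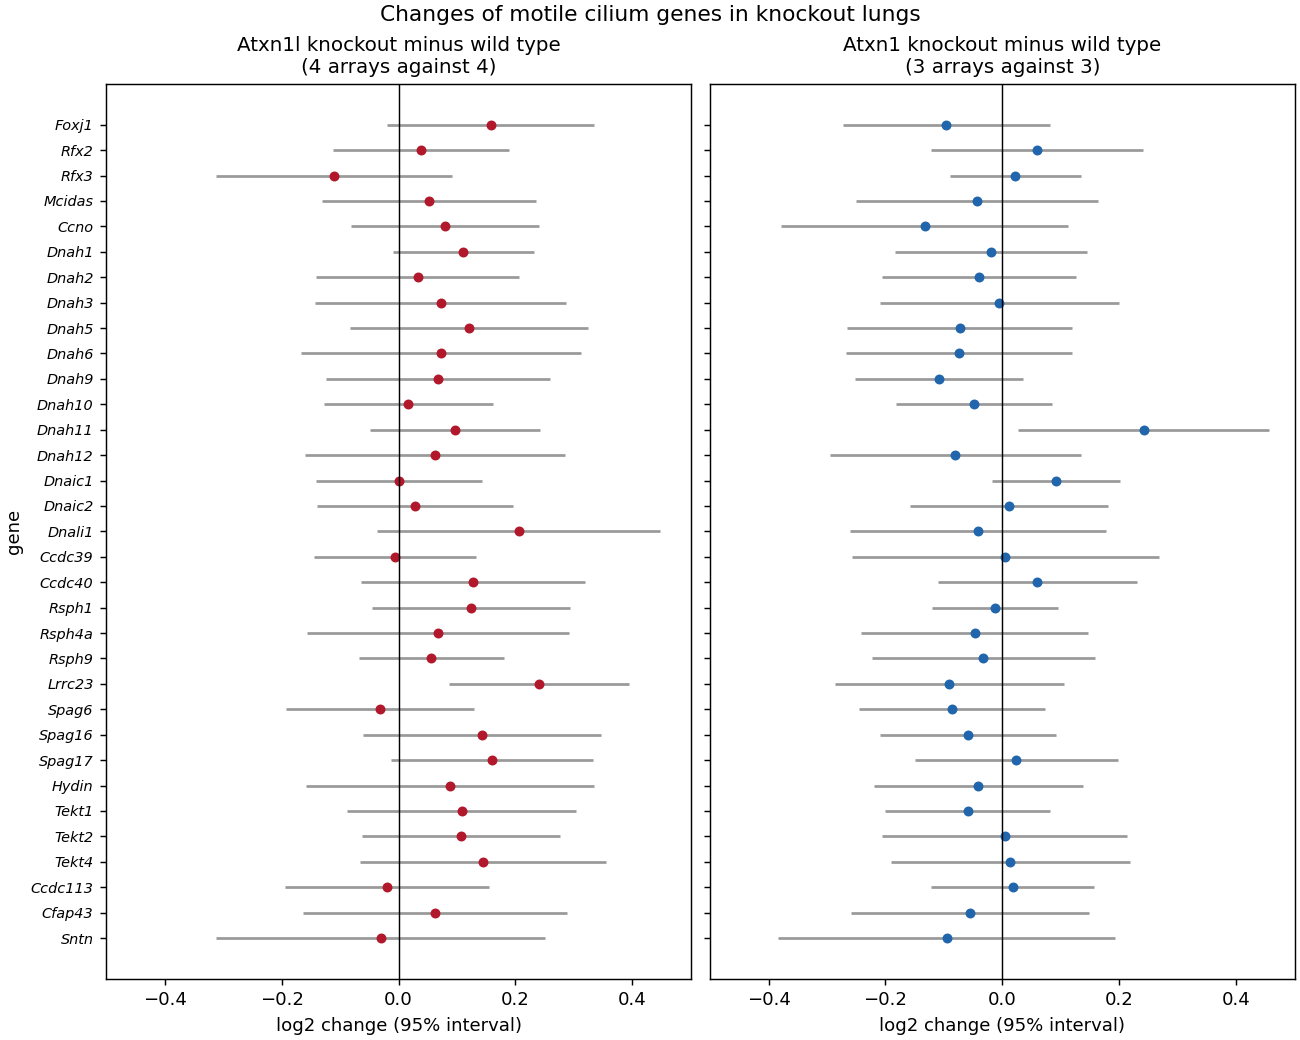
Log2 change (knockout minus wild type) of each measured cilium gene, ordered by role, in the Atxn1l comparison (left, 4 arrays against 4) and the Atxn1 comparison (right, 3 against 3); points are limma estimates and bars their 95% intervals. On the left 28 of 33 points lie above 0 and on the right 11 of 33, and every interval except that of Lrrc23 on the left and Dnah11 on the right holds 0.

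The surplus of changes above 0 leaned on 1 wild-type array. Wild-type replicate 4 of the Atxn1l set had the lowest level of all 8 arrays for 22 of the 33 genes, and 32 of 33 lay below the wild-type mean there. Taken as the mean over the 33 genes relative to the wild-type mean, knockout replicates 1 to 4 stood at 0.12, 0.11, 0.048 and 0.021. The wild types stood at 0.072, -0.036, 0.12 and -0.15. Knockout and wild-type arrays thus overlapped, with wild types 1 and 3 inside the range of the knockouts. Without wild-type replicate 4, 20 of 33 changes lay above 0 and their median was 0.011. Without wild-type replicate 1 the median was 0.11, with 28 above 0.

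**Figure D2:**
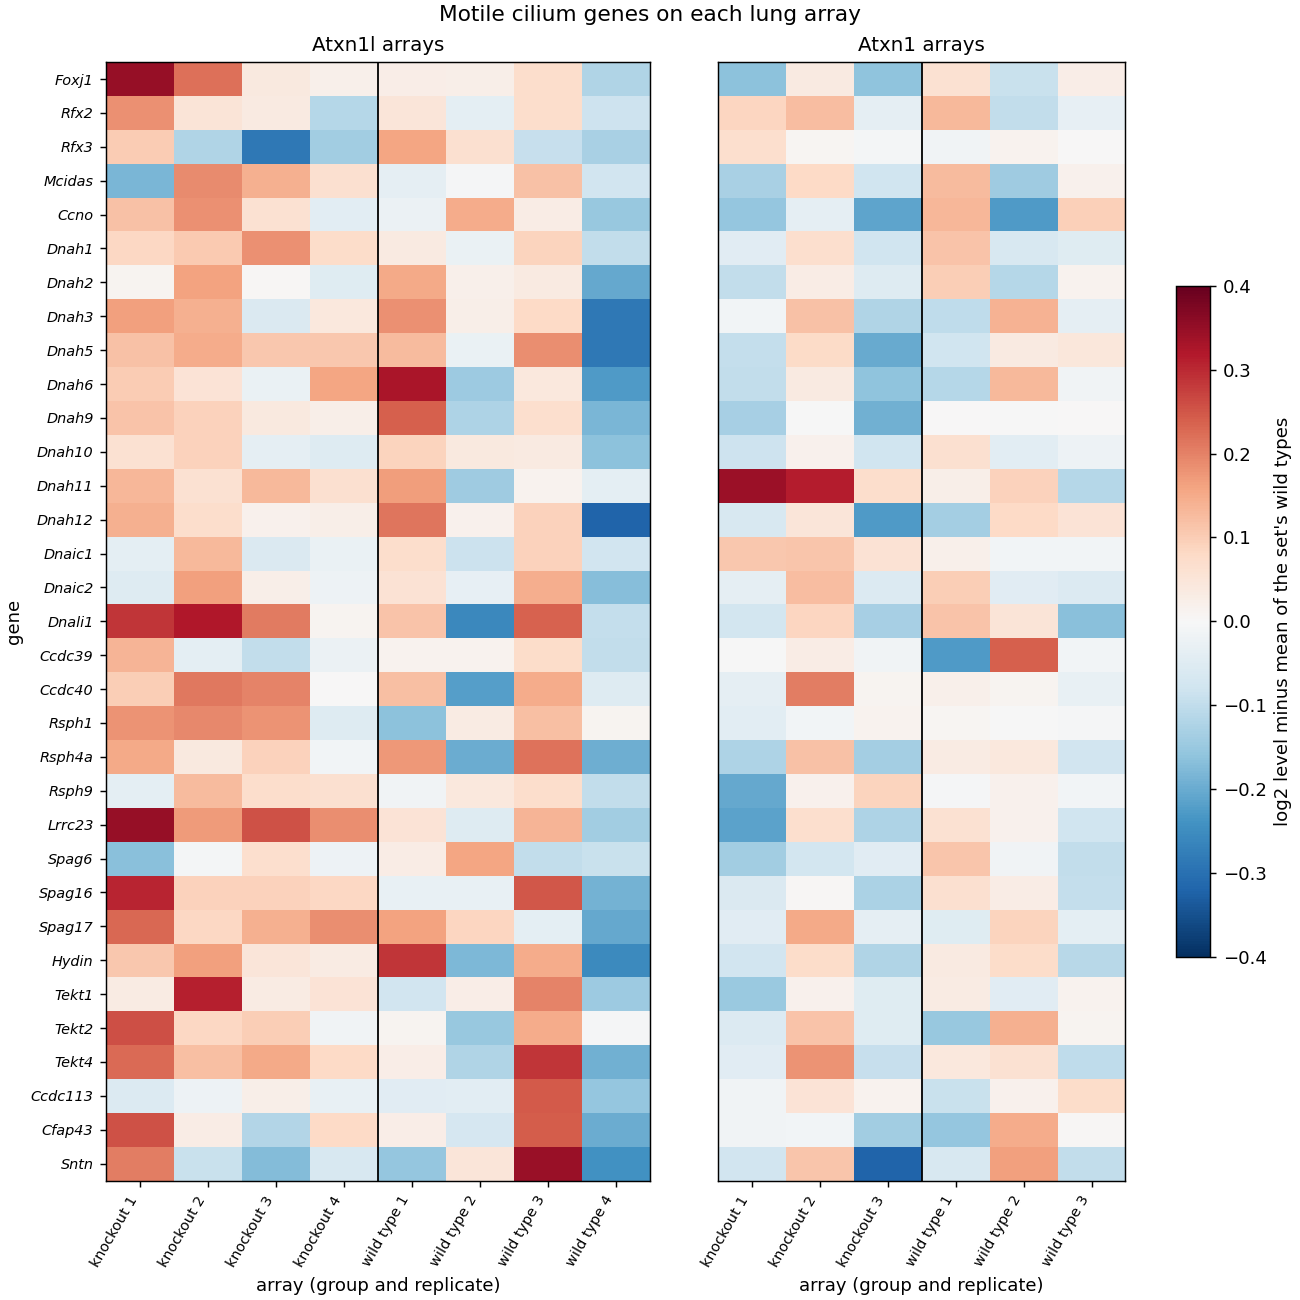
Log2 level of each measured cilium gene (rows) on each array (columns) minus the mean of the wild types of its set, with knockouts left of wild types; red is above and blue below the wild-type mean. Wild-type replicate 4 in the Atxn1l set is below the wild-type mean for 32 of 33 genes, and no knockout group is of 1 colour throughout.

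Among the regulators, Foxj1, the forkhead factor that drives motile ciliogenesis, was at 9.001, 8.875, 8.693 and 8.675 in Atxn1l knockouts and at 8.681, 8.678, 8.724 and 8.532 in their wild types. Knockout replicates 1 and 2 lay above every wild type and replicates 3 and 4 lay among them. Its change was 0.16 ± 0.079 (SE), with an adjusted p of 0.631 by limma, and 0.094 without knockout replicate 1. Rfx3, an RFX factor needed for cilia, was at 9.48, 9.26, 9.09 and 9.24 in knockouts and at 9.54, 9.44, 9.29 and 9.25 in wild types. These ranges overlapped, and its change of -0.11 ± 0.090 was the lowest of the 33 (adjusted p = 0.801). It was -0.18 without knockout replicate 1, and leaving out knockout replicate 3 gave -0.052, or wild-type replicate 1 -0.058. The related Rfx2 stood at 0.039 ± 0.067, Mcidas at 0.052 ± 0.082 and Ccno at 0.080 ± 0.072, none past the test. Thus 4 of 5 regulators had a value above 0.

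The dynein heavy chains, the motors of the arms, all had values above 0 in Atxn1l knockouts, 9 of 9, with a median of 0.072. None of the 9 passed the test, and without wild-type replicate 4 only 4 of 9 lay above 0, with a median of -0.0031. Dnah1, an inner arm motor, was at 7.57, 7.60, 7.67 and 7.57 in knockouts and at 7.53, 7.46, 7.58 and 7.39 in wild types, so 1 wild type reached into the range of the knockouts. Its change was 0.11 ± 0.054 (adjusted p = 0.623). The outer arm motors Dnah5, Dnah9 and Dnah11 had changes of 0.12 ± 0.091, 0.067 ± 0.086 and 0.097 ± 0.065. Those of the other inner arm motors were between 0.017 (Dnah10) and 0.072 (Dnah3 and Dnah6). Wild-type replicate 4 was the lowest of the 8 arrays for 8 of the 9, and wild-type replicate 1 was the highest for 5. For Dnah5 the knockouts lay within 8.11 to 8.15, while the wild types were at 8.13, 7.97, 8.19 and 7.71.

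Among the smaller arm chains, Dnali1, an inner arm light chain, had 9.02, 9.06, 8.94 and 8.75 in Atxn1l knockouts against 8.85, 8.48, 8.97 and 8.64 in wild types. These groups overlapped, and the change was 0.21 ± 0.11 with an adjusted p of 0.650. The outer arm intermediate chains Dnaic1 and Dnaic2 had changes of 0.00098 ± 0.063 and 0.028 ± 0.075. Of the ruler proteins, Ccdc39 was at -0.0057 ± 0.062 and its partner Ccdc40 at 0.13 ± 0.086.

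Lrrc23, a leucine-rich repeat protein of the radial spokes, was the only gene of the list whose arrays did not overlap in the Atxn1l comparison. It was at 7.92, 7.74, 7.82 and 7.75 in Atxn1l knockouts and at 7.62, 7.52, 7.70 and 7.43 in wild types. The lowest knockout stood just above the highest wild type. Its change was 0.24 ± 0.069, or an interval of 0.087 to 0.39, with an unadjusted p of 0.00592 and an adjusted p of 0.390 by limma, so it was not called. Without wild-type replicate 4 the change was 0.19. The spoke head proteins Rsph1, Rsph4a and Rsph9 had changes of 0.12 ± 0.076, 0.068 ± 0.10 and 0.056 ± 0.056, so 4 of 4 spoke genes had values above 0, as they did without wild-type replicate 4.

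In the central pair, Spag17 was at 7.66, 7.52, 7.57 and 7.62 in Atxn1l knockouts and at 7.59, 7.52, 7.39 and 7.23 in wild types. Wild types 1 and 2 lay within the knockout range, and the change was 0.16 ± 0.077 (adjusted p = 0.620), or 0.091 without wild-type replicate 4. Spag6 was at 7.11, 7.28, 7.35 and 7.26 in knockouts and at 7.31, 7.44, 7.18 and 7.19 in wild types, an overlap with a change of -0.032 ± 0.072. Spag16 had a change of 0.14 ± 0.091. Hydin, a very large central pair protein, had a change of 0.088 ± 0.11. Hydin lies on chromosome 8 like Atxn1l itself, with 9 protein-coding genes listed between them.

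Of the tektins, filament proteins inside the doublets, 3 of 3 had values above 0 in Atxn1l knockouts: Tekt1 0.11 ± 0.088, Tekt2 0.11 ± 0.076 and Tekt4 0.14 ± 0.094. All 3 stayed above 0 without wild-type replicate 4. Ccdc113, a coiled-coil protein of the cilium, was at 7.23, 7.26, 7.31 and 7.25 in knockouts and at 7.24, 7.24, 7.53 and 7.13 in wild types. Wild types lay on both sides of the knockouts, and its change was -0.020 ± 0.078. Cfap43, a protein that tethers inner arms, had a change of 0.063 ± 0.10. Sntn, which codes for sentan at the tip of airway cilia, had a change of -0.031 ± 0.13, the largest standard error of the list.

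In lungs without Atxn1, none of the 33 cilium genes passed the test, and 11 of 33 changes lay above 0 against 47.3% of all probe sets. Their median was -0.041, against -0.0038 over all probe sets, and they ran between -0.13 (Ccno) and 0.24 (Dnah11). By the adjusted p under 0.05, 0% of all 21212 probe sets were called by limma, and 258 had an unadjusted p under 0.05. One cilium gene, Dnah11, was among the latter with a higher level, against 0.75% of all probe sets, and 0 were lower, against 0.467%. The 95% intervals of the 33 lay between -0.38 and 0.46, with a farthest limit of 1.37-fold, again for each gene taken alone. One gene of 33 had all knockouts above all wild types, against 2.85% of all probe sets, and 1 had all below, against 1.9%.

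Dnah11, an outer arm motor, was at 9.41, 9.38 and 9.14 in Atxn1 knockouts and at 9.09, 9.16 and 8.95 in their wild types. Knockout replicate 3 lay below the highest wild type, so the groups overlapped. Its change was 0.24 ± 0.091 with an unadjusted p of 0.0324 and an adjusted p of 0.9999. The other 8 heavy chains had values below 0. Dnah9, also of the outer arm, was at 8.68, 8.81 and 8.63 in knockouts and at 8.82, 8.81 and 8.82 in wild types. Knockout replicate 2 lay below the lowest wild type by less than these decimals show, and the change was -0.11 ± 0.061 (adjusted p = 0.9999), or -0.068 without knockout replicate 3. In the Atxn1l comparison the same pair of genes stood at 0.097 and 0.067.

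Dnaic1, the outer arm intermediate chain, was at 8.35, 8.36 and 8.31 in Atxn1 knockouts and at 8.27, 8.24 and 8.24 in wild types. All knockouts lay above all wild types by a small margin, with a change of 0.092 ± 0.046 (adjusted p = 0.9999). Foxj1 was at 9.31, 9.51 and 9.32 in knockouts and at 9.54, 9.39 and 9.50 in wild types. Knockout replicates 1 and 3 lay below every wild type and replicate 2 lay among them. The change of Foxj1 was -0.096 ± 0.075, with -0.062 without knockout replicate 1 and -0.16 without knockout replicate 2. Ccdc40 was at 8.84, 9.08 and 8.89 in knockouts and at 8.90, 8.89 and 8.85 in wild types, with 1 high knockout array and a change of 0.060 ± 0.072.

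Spag6, which is below the dim level in that set, was at 7.69, 7.75 and 7.78 in Atxn1 knockouts and at 7.94, 7.81 and 7.73 in wild types. Its change was -0.086 ± 0.067, and the groups overlapped. It was -0.030 without wild-type replicate 1 and -0.13 without wild-type replicate 3. Radial spoke genes were below 0 in 4 of 4 cases, the farthest being Lrrc23 at -0.091 ± 0.083. As a mean relative to wild types, these spoke genes stood at -0.15, 0.048 and -0.039 on knockout replicates 1 to 3. Their wild types stood at 0.025, 0.018 and -0.044, so this lean rested in part on knockout replicate 1. Regulators were below 0 in 3 of 5 cases, with Rfx2 at 0.059 ± 0.077, Rfx3 at 0.022 ± 0.047 and Mcidas at -0.044 ± 0.088. The tektins lay between -0.059 (Tekt1) and 0.014 (Tekt4), and Sntn was at -0.095 ± 0.12.

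The Atxn1 values shifted with single arrays as well. As a mean over the 33 genes relative to the wild-type mean, knockout replicates 1 to 3 stood at -0.057, 0.069 and -0.084, and the wild types at 0.0063, 0.021 and -0.027. Knockout replicate 2 was the highest of the set, so that 4 changes lay above 0 without it, with a median of -0.078. Without knockout replicate 1 or 3 the counts were 14 and 15, with medians of -0.0090 and -0.0033. The medians were -0.027 and -0.014 without wild-type replicate 1 or 2, with 11 and 12 changes above 0.

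The knockouts were also compared with each other by the difference of their changes, Atxn1l minus Atxn1, in 1 limma fit of all 14 arrays. This cancels the offset between the separately normalized sets. Of all probe sets 2 (0.00943%) were called, and 0 of the 33 cilium genes, whose smallest adjusted p was 0.9996. The difference lay above 0 for 27 of 33 genes, against 11359 of the 21212 probe sets, and its median was 0.12, against 0.0087 over all. Of the 33, 2 had an unadjusted p under 0.05, against 688 of all probe sets. Lrrc23 differed by 0.33 ± 0.11 and Foxj1 by 0.25 ± 0.12, both at an adjusted p of 0.9996 by limma. There were 20 genes with a value above 0 in the Atxn1l and below 0 in the Atxn1 comparison. The share of all probe sets with this pattern was not computed. The counts behind it moved with single arrays. In the Atxn1l comparison 28 changes lay above 0, and 20 without wild-type replicate 4. In the Atxn1 comparison 11 did, and 4 to 15 on leaving out 1 array.

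With all groups pooled, the cilium genes varied together between mice. With group means removed, the median Pearson r over the 528 pairs of the 33 genes was 0.43 across the 14 arrays, and 464 pairs (87.9%) were above 0. The mean r was 0.38, against 0.029 over all pairs of probe sets. These points share the array, its RNA and its normalization set, so r is a description. Arrays far from their group mean weigh most in it. The mean of the 33 genes relative to wild types stood at 0.12 and -0.15 on wild-type replicates 3 and 4 of the Atxn1l set. On Atxn1 wild types it stood at -0.027 to 0.021. The r values were not computed for each group or without these arrays. The median r within other lists was 0.36 for 78 other motile cilium genes, 0.34 for 34 genes of intraflagellar transport and the Bardet-Biedl complex, 0.36 for alveolar type 2 genes and 0.17 for club cell genes. The median within-group SD was 0.12 for the 33 genes and 0.096 for all probe sets.

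The arm motor Dnah5 followed the mean of the other 32 genes at r = 0.89, as did the spoke head gene Rsph4a (0.89), Tekt4 (0.89) and Hydin (0.86). In all, 25 of 33 genes had r above 0.5 and 32 had r above 0. Mcidas, which starts the programme, was at 0.22 and Ccno at 0.34, while Foxj1 was at 0.68. Rfx3 was at 0.31, Rsph9 at 0.27, Rsph1 at 0.12 and Spag6 at -0.12. Spag6l, the paralogue of Spag6, was looked up after the values were seen and had r = 0.89, with changes of 0.12 ± 0.10 in the Atxn1l and -0.039 ± 0.084 in the Atxn1 comparison. On arrays of the Atxn1l set Spag6 read 7.11 to 7.44, near the dim level of 7.24, and Spag6l read 8.47 to 8.98. The level of Spag6 is uncertain, and how far the probes of each copy also read the other was not tested.

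**Figure D3:**
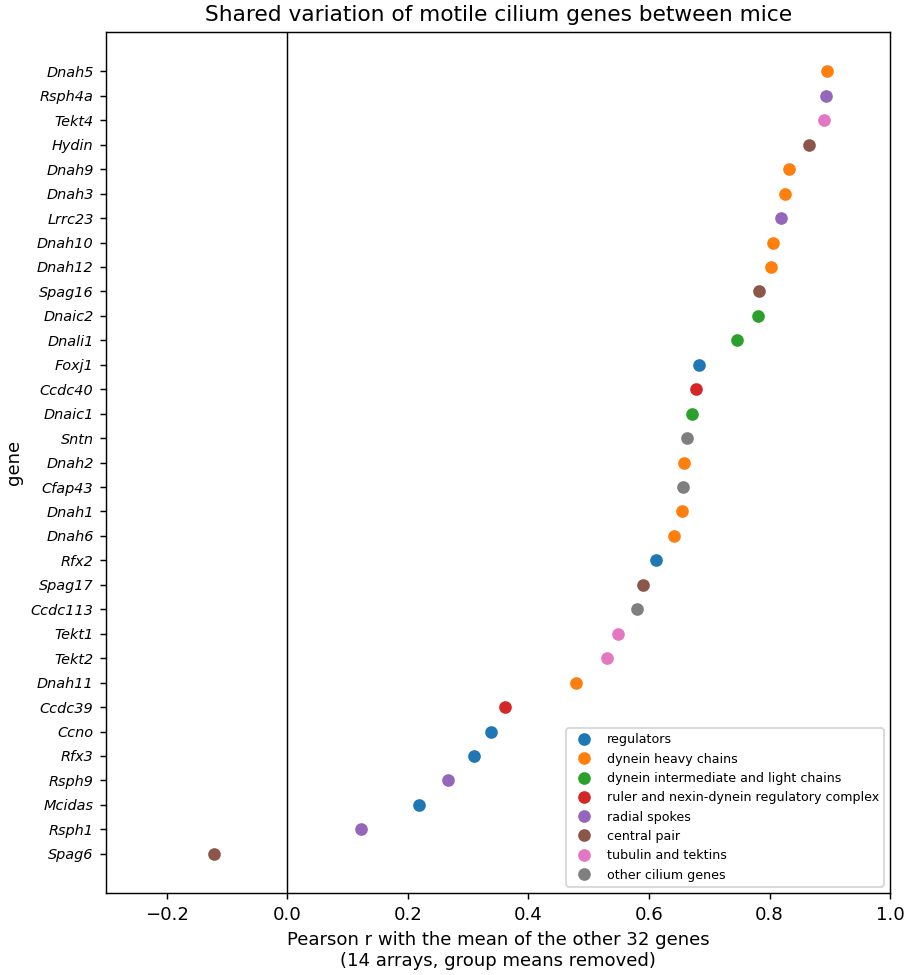
Pearson r of each cilium gene with the mean of the other 32, across 14 arrays with group means removed; colours give the role of the gene. Dnah5, Rsph4a and Tekt4 lead at 0.89, and Rsph1 (0.12) and Spag6 (-0.12) are the lowest.

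A wider set of motile cilium genes had small changes too. Of 78 further genes of dynein assembly, the axoneme and ciliated cells, 63 had a value above 0 in Atxn1l knockouts (median 0.038) and 32 in Atxn1 knockouts (median -0.013), with 0 called by limma in either. At an unadjusted p under 0.05, 3 were higher (against 4.54% of all probe sets) and 1 lower (against 3.95%) with Atxn1l lost. With Atxn1 lost, 0 were higher (against 0.75%) and 1 lower (against 0.467%). The smallest p values above 0 in the Atxn1l comparison were those of Cfap45 (0.20 ± 0.074, adjusted p = 0.521), Ccdc65 (0.16 ± 0.064) and Ccdc151 (0.17 ± 0.070). Below 0 they were Dnal1, an outer arm light chain (-0.26 ± 0.094, adjusted p = 0.514), Spag1 (-0.098 ± 0.056) and Stk36 (-0.089 ± 0.054). In the Atxn1 comparison the lowest p values were those of Mlf1 (-0.17 ± 0.065), Ttc25 (-0.13 ± 0.055) and Lrrc46 (-0.18 ± 0.12) below 0, and of Odf3b (0.10 ± 0.062), E2f5 (0.10 ± 0.089) and Tppp3 (0.081 ± 0.078) above 0. Wild-type replicate 4 of the Atxn1l set was the lowest array for 47 of the 78.

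Intraflagellar transport carries cargo in motile and primary cilia alike, and its genes did not lean the same way. Of 34 such genes, 9 had a value above 0 in Atxn1l knockouts (median -0.032) and 20 in Atxn1 knockouts (median 0.016), with 0 called by limma. At an unadjusted p under 0.05, 2 were lower in Atxn1l knockouts, against 3.95% of all probe sets: Arl13b, a small GTPase of the ciliary membrane (-0.15 ± 0.049, adjusted p = 0.450), and Bbs4 (-0.19 ± 0.068, adjusted p = 0.512). The smallest p values above 0 were those of Wdr35 (0.054 ± 0.059) and Ift27 (0.078 ± 0.092). In Atxn1 knockouts no gene of the 34 had an unadjusted p under 0.05, with Bbs2 at 0.053 ± 0.059 and Wdr19 at 0.056 ± 0.064 above 0, and Ift52 at -0.041 ± 0.046 and Ift46 at -0.033 ± 0.048 below 0. As a mean over the 34 genes relative to wild types, Atxn1l knockout replicates 1 to 4 stood at 0.017, -0.094, -0.045 and -0.034. Their wild types stood at 0.037, -0.014, 0.0074 and -0.030. Knockout replicate 2 was the lowest array of that set for 19 of the 34, so this lean too rested in part on 1 array. The difference between these lists was not tested.

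Markers of other cells moved on the same arrays. The mean of 12 general epithelial genes, relative to wild types, was 0.028 to 0.15 on Atxn1l knockout arrays and -0.091 to 0.075 on wild types, lowest on the same wild-type replicate 4, where 11 of 12 lay below the wild-type mean. Of these 12, 11 had a change above 0 (median 0.081), with Cdh1, the epithelial cadherin, at 0.17 ± 0.082. None of the 12 was called, but 4 had an unadjusted p under 0.05 and all of these were higher, against 4.54% of all probe sets. They were the keratins Krt8 (0.15 ± 0.050) and Krt18 (0.17 ± 0.072), the epithelial factor Elf3 (0.25 ± 0.085) and the tight junction gene Cldn4 (0.20 ± 0.077), named after their values were seen. The mean of 12 club cell genes was -0.13 to 0.27 in Atxn1l knockouts and -0.15 to 0.33 in wild types, and 6 of 12 had a change above 0. Scgb1a1, the main club cell secretoglobin, was at -0.025 ± 0.045. None of the 12 was called, and 2 had an unadjusted p under 0.05, both higher: Hp, which codes for haptoglobin (0.54 ± 0.096, adjusted p = 0.192), and Upk1a (0.15 ± 0.057), also named after their values were seen. Hp lies on chromosome 8 like Atxn1l and Hydin, starting at base 109575128, against 110266968 for Hydin. Whether its change reflects club cells or its place on the chromosome was not tested. Neutrophil genes had a mean of 0.23 to 1.85 in Atxn1l knockouts, with all 13 highest on replicate 1, and of -0.31 to 0.38 in wild types. The tracheal cartilage list of 10 genes was at -0.038 to 0.16 in Atxn1l knockouts and at -0.12 to 0.12 in wild types, again lowest on wild-type replicate 4. On arrays of high Xist level alone, 26 of the 33 cilium genes had values above 0 (median 0.10). The only wild types in that fit were replicates 3 and 4, so it too leaned on wild-type replicate 4. The part of these markers in the values of the cilium genes was not tested.

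In the Atxn1 set the epithelial mean was -0.045 to 0.074 in knockouts and -0.031 to 0.021 in wild types. Club cell genes were at -0.32 to -0.087 in knockouts and -0.18 to 0.22 in wild types. Oesophagus genes stood at 0.29 on wild-type replicate 1, where 7 of 7 were the highest of the set, and at -0.23 on wild-type replicate 2. Neutrophil genes were at -0.45 to -0.19 in knockouts and -0.67 to 1.20 in wild types, the highest being replicate 3. The part of these in the cilium values was not tested either.

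**Figure D4:**
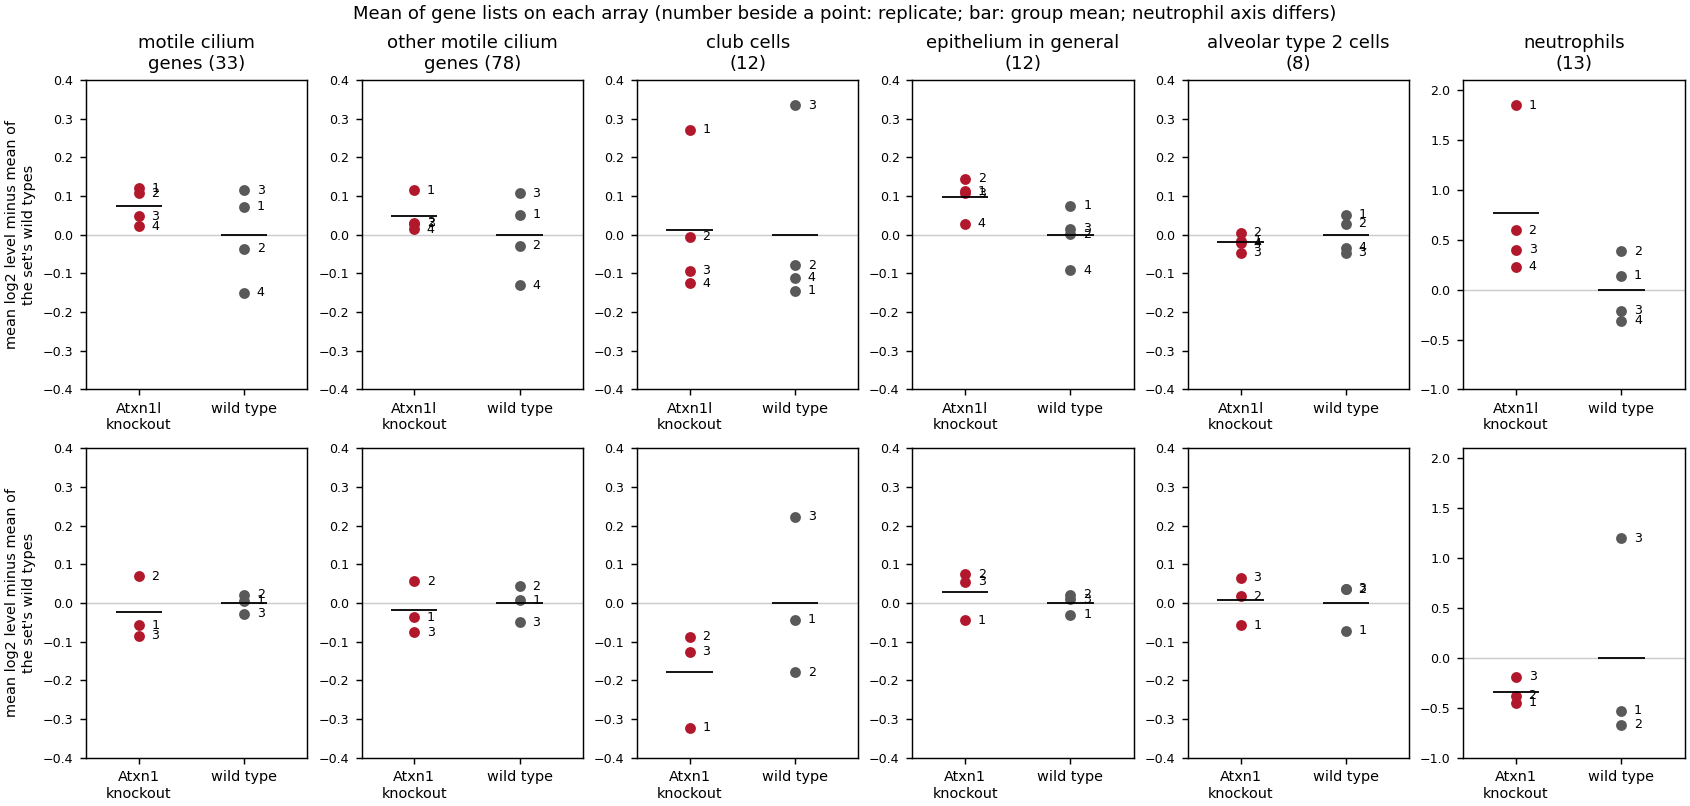
Mean log2 level of 6 gene lists on each array, minus the mean of the wild types, for the Atxn1l set (top) and the Atxn1 set (bottom), with knockouts in red left of wild types in grey; numbers beside points are replicates, bars are group means, and the neutrophil axis is wider. In the Atxn1l set the motile cilium genes lie between 0.021 and 0.12 in knockouts and between -0.15 and 0.12 in wild types, and replicate 4 is the lowest wild type also for the epithelial list.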

How the data were processed

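Whole-lung RNA was measured on 14 arrays. The deposited log2 levels were made by the authors with RMA, per the submitters' processing notes, in 2 runs: the 8 arrays of the Atxn1l set and the 6 of the Atxn1 set, per the labels' design text. RMA equalises the distribution of levels within a run, so levels are not compared between sets. Each probe set stands for 1 Entrez gene, and 18786 of 21212 had 1 symbol. The sources used here name no genome build. Changes were fitted here in R 4.3.3 by limma 3.58.1 (default eBayes prior, two-sided, no covariate, no filter, Benjamini-Hochberg over all probe sets). The step was tested on simulated data. A simulated log2 change of 0.25 was recovered for 17 of 67 genes in the Atxn1l comparison and for 0 of 67 in the Atxn1 comparison. At 0.5 the counts were 53 of 67 and 46 of 67, with 7 and 6 false calls among 21212. The simulation changed 67 genes by 0.25, 67 by 0.5 and 66 by 1, whereas 9 and 0 probe sets were called in the real comparisons. With fewer changed genes the adjusted threshold is harder to pass, so these counts may overstate recovery in the real data. A true change as small as the values of the cilium genes could thus go uncalled. Few arrays limit the precision, and p-values measure the spread between these samples. The design text speaks of pairs, but the labels do not tie arrays to litters or pairs, so the main fit takes no account of pairing. That text names the same genotype for both sets, and the genotypes of the sample labels were used here. The members and gene lists were chosen with earlier results of these data known. Values of every array are given for Foxj1, for the 3 genes of smallest p in each direction of each comparison and for those whose groups do not overlap. Dnali1 and Dnah5 were added after their values were seen. Alternatives were leaving out each array, a replicate block, weights for arrays, an Xist covariate, centring each array on its median, quantile normalization of all arrays together, a trended robust prior, a dim filter and an unadjusted threshold. Using only arrays of high Xist level was chosen after seeing the data.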

Additional observations from a re-analysis of the deposited data

Results flagged for a closer look

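In groups of 4 arrays, 1 array stood apart from the other 3 in 4 of 68 checks, by Dixon's gap over range above its critical value for 4 samples. The checks were 66 of the 33 single genes and 2 of their mean, in both groups of the Atxn1l set. All 4 were in Atxn1l knockouts, and chance flags about 1 in 20 such checks. Dnaic1 was at 7.30 in replicate 2, against 7.12 to 7.15 in the others. Tekt1 was at 8.27 in the same replicate, against 7.99 to 8.01. Spag16 was at 7.28 in replicate 1, against 7.06 to 7.07. Rsph1 was at 7.63 in replicate 4, against 7.86 to 7.87.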

How the results depend on the processing

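No cilium gene was called in any of 16 alternative fits of the Atxn1l comparison (smallest adjusted p 0.269) or 13 of the Atxn1 comparison (0.138, with array weights). Of 189 values of the genes named with every array, 182 kept their sign, and none passed the threshold. The 7 that turned were Spag6 in the Atxn1l comparison (0.013 with array weights, 0.11 on arrays of high Xist level, which was chosen after seeing the data, and -0.065 to 0.021 on leaving out 1 array), Ccdc113 (-0.072 to 0.061 on leaving out 1 array), Spag6 in the Atxn1 comparison (0.00091 with array weights) and Ccdc40 (-0.013 to 0.11 on leaving out 1 array). The cause was not tested. Probe sets called in the Atxn1l comparison, 9 in all, were 2 with a replicate block, 4 with the filter on dim probe sets, 2 on arrays of high Xist level, 2 to 25 on leaving out 1 array and 1802 at an unadjusted p under 0.05. In the Atxn1 comparison, 1 was called with array weights and 258 at an unadjusted p. Between the knockouts, 1 to 2 were called on leaving out 1 array. Changes above 0 numbered 20 to 31 in the Atxn1l and 4 to 16 in the Atxn1 comparison, 4 to 15 of the latter on leaving out 1 array. Same-numbered arrays deviated together at r of 0.037 to 0.38 (Atxn1l set) and -0.42 to 0.42 (Atxn1 set). Whether equal numbers mark pairs is not decided by these r values, since paired mice need not deviate alike. The best match had the same number for 2 of 4 and 1 of 3, and the replicate block called no cilium gene.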

Other observations

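The probe sets outside the list that followed the mean of the 33 genes most closely across the 14 arrays, with group means removed, were Lrrc74b (r = 0.96), Cdhr3 (0.95), Tmem212 (0.95), 1700016K19Rik (0.93) and Zmynd10 (0.93). Zmynd10 codes for a factor of dynein arm assembly and Cdhr3 for a cadherin-related protein of airway ciliated cells. Of the 50 closest, 12 (24%) belonged to the 78 other motile cilium genes, against 0.368% of all probe sets outside the list. Myb, a transcription factor of early multiciliated cells, was among them at r = 0.85, and so were Cfap54 and Cfap65, both at r of 0.90 to 0.91. Over all 78, the median r was 0.60. These values describe shared variation between mice and carry no test. They pool all groups, and arrays far from their group mean weigh most in them.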
